A study of Homo sapiens with 4 samples.

Results

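MYC encodes a basic helix-loop-helix leucine zipper transcription factor that binds DNA together with MAX, and it lies in a gene desert on chromosome 8q24. The window described here was the stretch of chromosome 8 from 127.5 to 130.5 Mb (hg19) around the gene, and its members were all accessible regions in it. Accessibility had been measured by ATAC-seq, an assay that uses the Tn5 transposase to tag open DNA, where a peak is a cluster of its insertions. There were 2 libraries of MCF10A, an immortalized and nontransformed human mammary epithelial cell line (parental), and 2 libraries of G12V, the same line carrying an HRAS oncogene with the G12V change (the labels write H-RAS Gv12). The oncogene had been brought in by lentiviral transduction together with a GFP vector, and the media of both groups held EGF, insulin, hydrocortisone and cholera toxin. Peaks of the 4 libraries that overlapped were merged, which gave 60886 regions on the autosomes and X, of which 101 lay in the window. The question was which of these sites were open before and after transformation by HRAS.

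The MYC protein drives genes of ribosome production, metabolism and cell division, and growth factor signalling through RAS and ERK is known to raise its transcription and its stability. The sequence around the gene holds few other protein-coding genes but many distal enhancers, which are used by different tissues and include sites inside long non-coding RNA genes. The best known of these is PVT1, directly downstream of MYC, whose promoter and introns hold regulatory elements that can act on MYC.

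The lists differed in length more between replicates than between cell types, with 12902 and 34484 peaks in MCF10A and 14057 and 46698 in G12V (replicates 1 and 2). The number of reads behind each list is unknown, so a site without a peak in a short list may be one that did not pass the peak caller. Peak strength was therefore compared as a percentile, the rank of a peak's score within its own list on a scale up to 100. Of 12 promoters of mammary basal epithelial marker genes, 7 had a peak in at least 1 library, including ITGA6, ITGB4 and KRT17, and 5 had none, including KRT5, KRT14 and TP63, while 49.7% of all 20090 protein-coding promoters had a peak in at least 1 library. The counts of these promoters with a peak were 3 and 5 in MCF10A and 0 and 4 in G12V. Promoters of the 4 blood and 2 measured endothelial markers had no peak in any library, 1 of 4 luminal markers (FOXA1) had one, and 2 of 4 fibroblast markers (PDGFRA and COL1A1) had one in MCF10A replicate 2.

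The window held 20 peaks in MCF10A replicate 1, 61 in MCF10A replicate 2, 24 in G12V replicate 1 and 78 in G12V replicate 2. Relative to list length, these were 1.55 peaks per 1000 (95% Wilson interval 1 to 2.4), 1.77 (1.38 to 2.27), 1.71 (1.15 to 2.54) and 1.67 (1.34 to 2.09). Relative to list length the counts thus lay close together, and the intervals, which cover counting error only, overlapped. The mean count in the window was 40.5 ± 29 for MCF10A and 51 ± 38.2 for G12V (SD, n = 2 each). These means lay 10.5 apart, less than 1 SD of either group (two-sided exact permutation test, p = 0.667, with 0.333 as the lowest p that this design allows). Per 1000 peaks, MCF10A had a mean of 1.66 ± 0.154 and G12V of 1.69 ± 0.0268 (SD, n = 2 each, p = 1 by the same exact test).

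Peaks covered more of the window than of the genome in every library. They covered 0.304% and 1.3% of the window in MCF10A and 0.368% and 1.96% in G12V, against 0.189% and 0.692%, then 0.212% and 0.989%, of the genome. DNA copy number of the segment was not measured, and its part in these values was not tested. Divided into stretches of 3 Mb, the genome had a median of 61 merged regions and 14 protein-coding gene starts per stretch. The window had more regions (101) and fewer protein-coding starts, namely 3: MYC, LRATD2 and POU5F1B. Of its 101 regions, 67 lay in introns, 21 in non-coding exons, 3 in coding exons, 1 in a UTR and 9 outside genes, so most of the sites were inside genes, chiefly long non-coding ones.

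**Figure D1:**
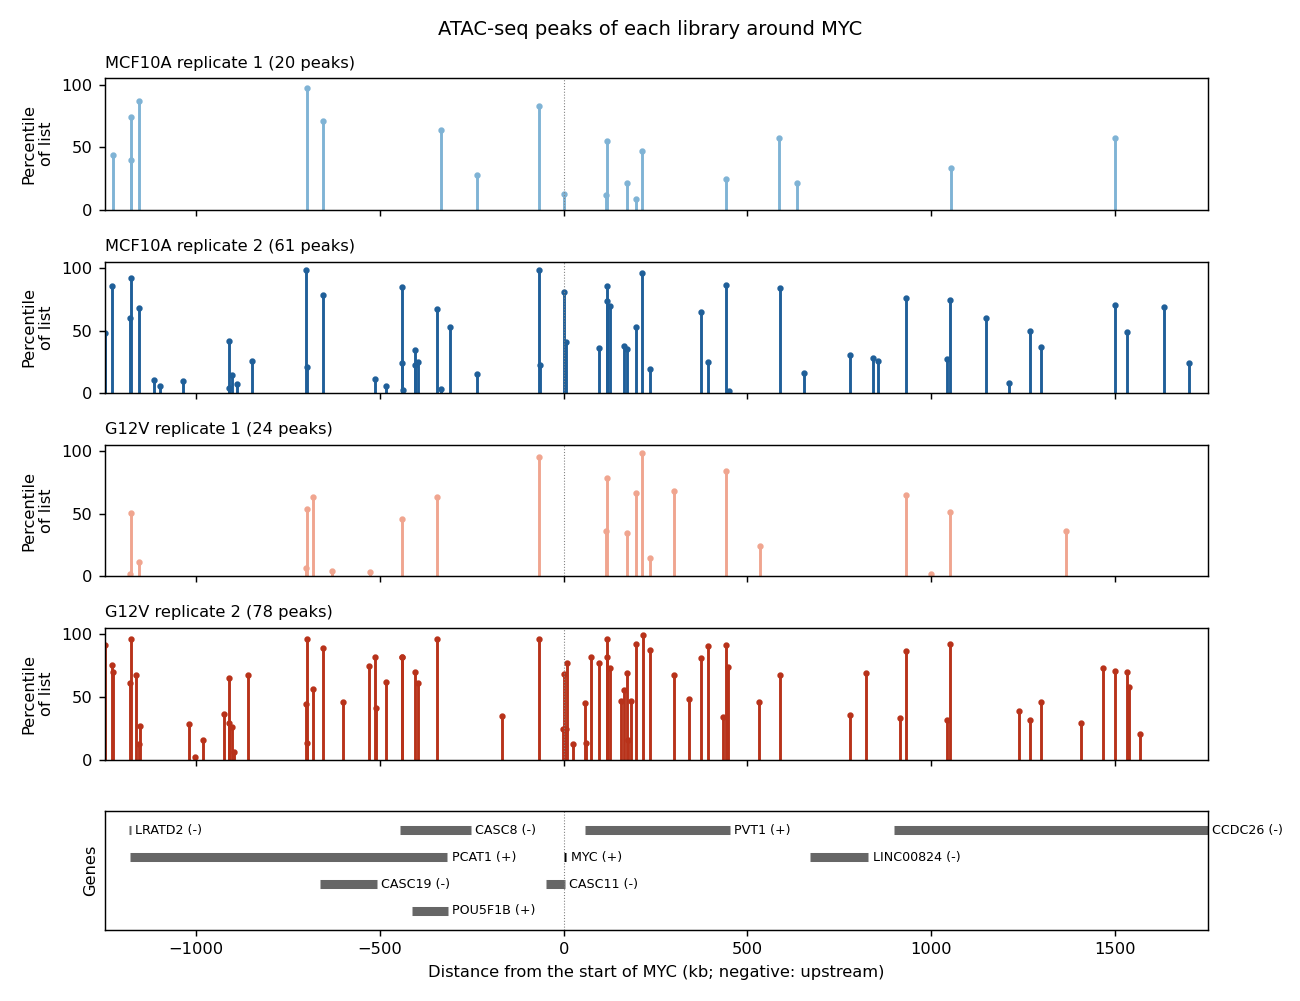
Peaks of each library by distance from the start of MYC in kb (x axis) and by their percentile in the library's list (y axis), with selected genes and their strands in the lowest panel. Each line is 1 peak. The replicate 1 lists held 20 and 24 peaks and the replicate 2 lists 61 and 78, and peaks of high percentile occurred near the far upstream end, around 700 kb and 67 kb upstream, and in PVT1.

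Few regions followed the cell type. A region with a peak in both G12V lists and neither MCF10A list was termed gained, the opposite lost, and one with a peak in all 4 lists shared. The window held 3 gained regions, or 2.97% of its 101 (Wilson interval 1.02 to 8.37), against 3.2% of all regions. It held 1 lost region, or 0.99% (0.175 to 5.4), against 2.14% of all regions. Both shares were close to those over the genome. With an equal number of the best peaks from each library, 1 of 41 window regions was gained and 3 were lost, so the order was reversed. The shares over all regions at that setting are not given here. Shared regions numbered 11, or 10.9% (6.19 to 18.5), against 8.36%. A further 22 regions had a peak in both replicate 2 lists only (21.8%, against 16.3% of all regions), 9 had one in 3 lists (8.91%, against 12.1%), 1 was in MCF10A replicate 1 and G12V replicate 2, and 54 were in a single list (53.5%, against 56.4%). Peaks of G12V alone were present in 37 regions and peaks of MCF10A alone in 21, against 40.9% and 20.8% of all regions.

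Most regions found in a single list came from the long lists, as over the genome. G12V replicate 2 gave 30 of the 54 (55.6%, against 61.3% of all single-list regions), with a median percentile of 37.9 (range 1.82 to 82.3), and MCF10A replicate 2 gave 18 (33.3%, against 28%), with a median of 19.2 (2.12 to 69.1). G12V replicate 1 gave 4 (2.32 to 36.6) and MCF10A replicate 1 gave 2 (21.3 and 28.1).

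**Figure D2:**
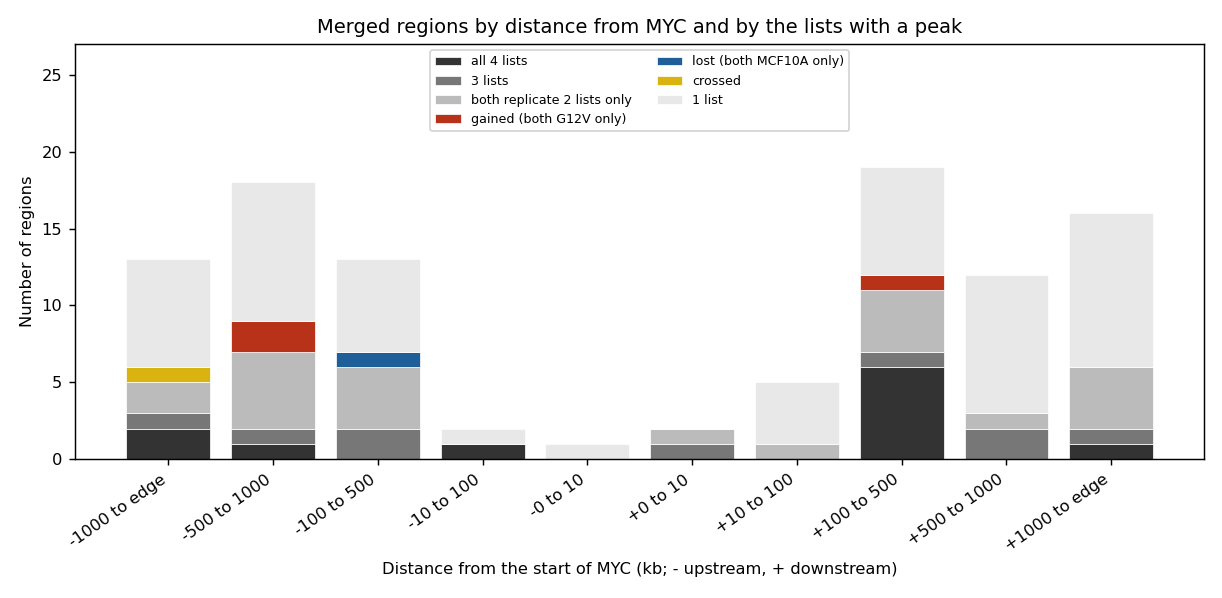
Number of merged regions (y axis) by distance from the start of MYC in kb (x axis), coloured by the lists that had a peak. The stretch from 100 to 500 kb downstream, mostly PVT1, held 19 regions, 6 of them with a peak in all 4 lists, and the 10 kb on either side of the start held 3.

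The promoter of MYC (ENSG00000136997, plus strand, chr8:128747680-128755197) was open in 3 of the 4 libraries. A promoter was defined as the 1000 bp before and the 500 bp after a gene start. MCF10A replicate 1 had a peak there at percentile 12.5 (score 47.68), MCF10A replicate 2 at 81 (132.73) and G12V replicate 2 at 68.3 (103.91), while G12V replicate 1 had no peak. In the full lists the 2 cell types overlapped, and the replicates of each cell type lay farther apart than the cell types did. With 0 entered for the missing peak, the mean percentile was 46.8 ± 48.5 for MCF10A and 34.1 ± 48.3 for G12V (SD, n = 2 each, G12V minus MCF10A -12.6, exact two-sided permutation test, p = 0.667). The difference turned to 21.5 without G12V replicate 1 and to 21.6 without MCF10A replicate 2. It was -12.8 with the better-scoring 50% of each list. With the same number of best peaks from each library it was -30.9 (same exact test, p = 0.333, the smallest p possible).

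The region that held these peaks, chr8:128747257-128748768, covered the annotated gene start and overlapped a coding exon of at least 1 transcript. Another region overlapped the upstream end of the promoter (chr8:128746260-128746771, 1.17 kb before the start) and had a peak in G12V replicate 2 alone, at percentile 24.9. The peaks of the replicate 2 lists covered the start. The MCF10A replicate 1 peak (chr8:128748116-128748669) began after it and overlapped only the end of the promoter, at 128748180. The promoter peak was not among the strongest sites of the window: it ranked 18 of 20 in MCF10A replicate 1, 10 of 61 in MCF10A replicate 2 and 34 of 78 in G12V replicate 2. A further region overlapped the 3′ end of the gene (chr8:128754136-128755885, UTR), with peaks in the replicate 2 lists only. The MCF10A peak, which overlapped the gene's end, was at percentile 41.1. In G12V the peak over the gene's end was at 24.9, and a stronger one at 77.5 lay beyond it. The antisense neighbour CASC11, a long non-coding RNA gene that overlaps the MYC start, had no region of its own promoter, and its body held 2 regions, both of which were the MYC promoter regions given above.

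PVT1 (ENSG00000249859, plus strand, chr8:128806772-129199347) held more regions for its length than the other two long genes of the window. This long non-coding RNA gene covered 13.1% of the window and held 23 of the 101 regions (22.8%), which was 5.86 per 100 kb, against 4.29 in PCAT1 and 2.23 in CCDC26. Of the 23, 6 were shared, 1 gained and 0 lost, 5 were in both replicate 2 lists only, 1 was in 3 lists and 10 were in a single list, of which 9 in G12V replicate 2. By library the gene held regions with a peak in 6 (MCF10A replicate 1), 13 (MCF10A replicate 2), 8 (G12V replicate 1) and 22 (G12V replicate 2) of the 23. The promoter at its gene start had a peak in G12V replicate 2 alone, at percentile 45.4, so the shared sites of PVT1 lay farther inside the gene. PVT1 has 132 annotated transcript starts, and whether the shared sites lay at any of these was not tested.

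The strongest PVT1 site, 215 kb downstream of the MYC start (chr8:128961537-128962939, in a PVT1 intron and at the promoter of the long non-coding RNA gene LINC02912), was at percentile 46.7 and 95.6 in MCF10A and 98.9 and 99.7 in G12V. It was the strongest peak of the window in both G12V libraries and the third in MCF10A replicate 2, and both G12V values exceeded both MCF10A values. The site 196 kb downstream (chr8:128943559-128944684, non-coding exon of PVT1) was at 8.38 and 52.6 in MCF10A and at 66.4 and 92.4 in G12V. Here too the cell types did not overlap. These were the 2 of 11 shared regions of the window with both G12V percentiles above both MCF10A percentiles, against 18.5% of all shared regions. The window was thus close to the genome in this share.

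In the other 4 shared PVT1 sites the cell types overlapped, with G12V replicate 1 below MCF10A replicate 2. The site at 117 kb (chr8:128863480-128865015) had percentiles of 12.1 and 73.7 in MCF10A and 36.3 and 82.3 in G12V. The site at 119 kb (chr8:128865991-128867534) had 55.2 and 85.7 in MCF10A and 78.6 and 96.1 in G12V. Both are in non-coding exons of PVT1. The site at 173 kb (chr8:128919998-128920672, intron) had 21.6 and 35.6, then 34.8 and 68.9, and the site at 442 kb (chr8:129188619-129190090, intron) had 24.7 and 86.6, then 84.5 and 91.8. Within each replicate number, each of these sites stood higher in G12V.

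The percentiles of PVT1 sites were thus higher in G12V whenever lists of the same replicate number were set side by side. Among regions with a peak in both replicate 1 lists, G12V stood higher in 6 of 6 PVT1 regions, with a median difference of 38.1 percentile points (range 13.2 to 59.8), against 55.1% of all such regions and an overall median of 1.72. Among regions in both replicate 2 lists it stood higher in 12 of 12, with a median difference of 17.5 (3.81 to 68.4), against 63.1% and a median of 4.93 over all regions. The wider differences in the replicate 2 lists were at 234 kb (chr8:128981467-128982529), where MCF10A was at 19 and G12V at 87.5, and at 393 kb (chr8:129139967-129140687), where the values were 24.7 and 90.7. All 6 shared PVT1 regions were higher in G12V within both replicate numbers, against 39.8% of all shared regions. The sites of 1 gene lie in 1 stretch of DNA and come from the same 4 libraries, so they are not replicates, and no test over them was made.

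Set crosswise, the lists gave G12V higher in 6 of 6 PVT1 regions for MCF10A replicate 1 with G12V replicate 2 (78.7% of all such regions) and in 2 of 7 for MCF10A replicate 2 with G12V replicate 1 (32% of all such regions). The direction thus did not hold in every pairing of the full lists.

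The lists of unequal length bear on these percentiles. With the same number of best peaks from each library, G12V stood higher in 6 of 6 PVT1 regions in replicate 1 (median difference 36.8) and in 5 of 6 in replicate 2 (median 8.36), while over all regions the shares were 53.5% and 50.7%. Crosswise at equal length it stood higher in 5 of 5 (MCF10A replicate 1 with G12V replicate 2) and 4 of 4 (MCF10A replicate 2 with G12V replicate 1), against 50.7% and 52.6% of all regions. With the better-scoring 50% of each list the counts were 1 of 1 and 7 of 7 within replicate numbers, against 54.7% and 62.5% of all regions. Crosswise they were 1 of 1 and 2 of 4, against 77.8% and 31.9%.

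**Figure D3:**
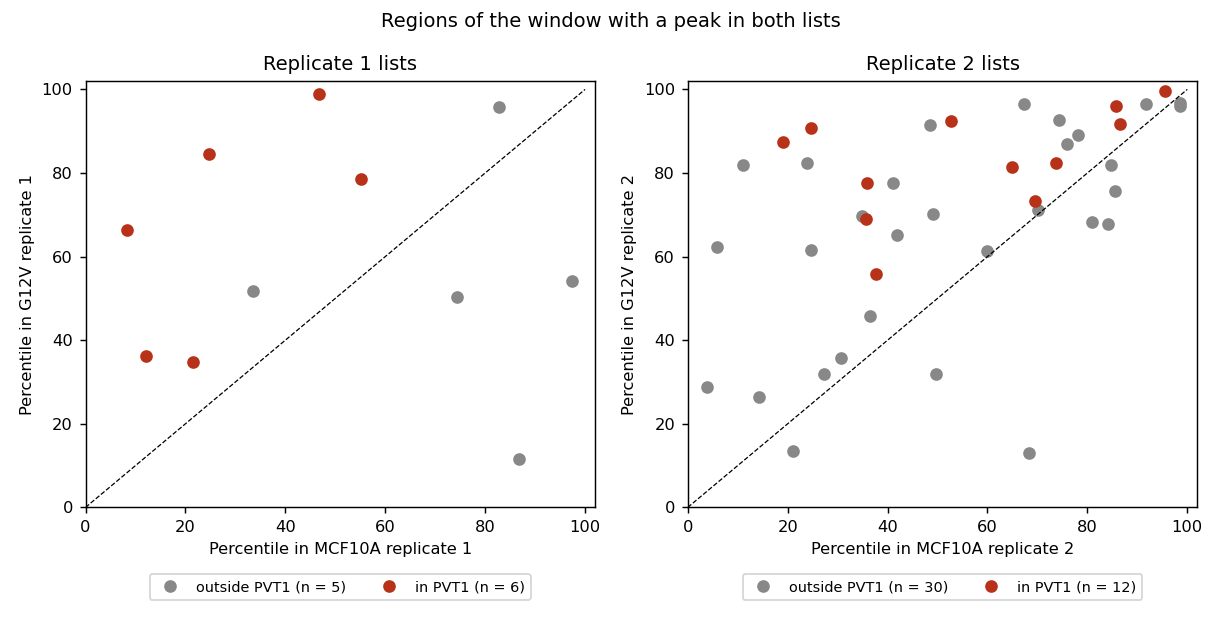
Percentile in G12V (y axis) against percentile in MCF10A (x axis) for window regions with a peak in both lists, for the replicate 1 lists (left) and the replicate 2 lists (right). Each point is 1 region, PVT1 regions are red, and the dashed line marks equal percentiles; all 6 and all 12 PVT1 points lie above it.

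Outside PVT1 the direction was mixed. In the replicate 1 lists G12V stood higher in 2 of 5 regions, with a median difference of -24.1 percentile points, and in the replicate 2 lists in 21 of 30, with a median of 10.2. Upstream of MYC the counts were 1 of 4 (median -33.7) and 13 of 19 (median 12). Downstream of MYC and outside PVT1 they were 1 of 1 (difference 18.2) and 8 of 11 (median 4.94). On the rest of chromosome 8, 53% and 62.7% of such regions were higher in G12V, with medians of 1.57 and 4.57. Over the whole window, G12V was higher in 8 of 11 and 33 of 42 regions. The median percentile of all window peaks was 45.1 and 36.5 in MCF10A and 48.1 and 63.7 in G12V, and the means of 40.8 ± 6.11 and 55.9 ± 11 (SD, n = 2 each) differed by 15.1 (exact two-sided permutation test, p = 0.333, the smallest p possible). With the better-scoring 50% of each list this difference turned to -4.37.

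**Figure D4:**
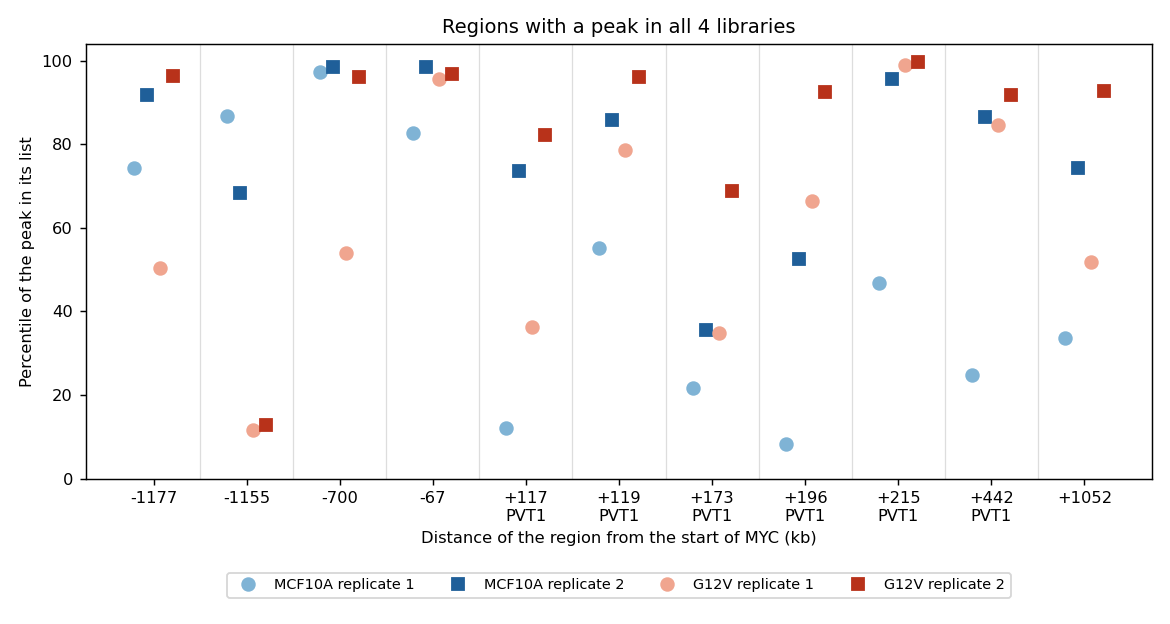
Percentile within its list (y axis) of the peak of each library in the 11 regions with a peak in all 4 lists, ordered by distance from the start of MYC in kb (x axis, PVT1 regions named). Circles are replicate 1 and squares replicate 2, MCF10A is blue and G12V red; the region 1155 kb upstream is at 11.6 and 12.9 in G12V and at 86.7 and 68.3 in MCF10A, and the PVT1 region at 215 kb is at 98.9 and 99.7 in G12V.

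On the upstream side, 2 shared regions stood higher in both MCF10A libraries than in either G12V library. In the other shared upstream regions the cell types overlapped. The shared region 1155 kb upstream (chr8:127592077-127592847, intron of PCAT1) was at percentile 86.7 and 68.3 in MCF10A and at 11.6 and 12.9 in G12V. The cell types were far apart here, with differences of -75 and -55.3 percentile points within the replicate numbers. The shared region 699.7 kb upstream (chr8:128047099-128048784, also in a PCAT1 intron) was at 97.4 and 98.5 in MCF10A and 54.1 and 96 in G12V, and it was the strongest window peak of MCF10A replicate 1. These were the 2 of 11 shared regions with both G12V percentiles below both MCF10A percentiles, against 6.94% of all shared regions, although in the latter region the difference between the replicate 2 lists was -2.48 points.

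A region 66.8 kb upstream of the MYC start was strong in all libraries. This site (chr8:128680079-128681749, in a non-coding exon of the long non-coding RNA gene ENSG00000286010) was at percentile 82.7 and 98.6 in MCF10A and 95.7 and 96.7 in G12V, and it was among the 3 strongest window peaks of every library. The cell types overlapped. It was the shared region nearest to MYC.

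The far upstream end held LRATD2, a protein-coding gene whose promoter was open in all libraries (chr8:127569633-127571273, 1177 kb upstream). Its percentiles were 74.4 and 91.7 in MCF10A and 50.3 and 96.4 in G12V, and the groups overlapped. The neighbouring region at 1179 kb, at the promoter of PCAT1 on the opposite strand, had no peak in MCF10A replicate 1 and was at 60 in MCF10A replicate 2 and at 1.6 and 61.4 in G12V. PCAT1, a long non-coding RNA gene first described in prostate cancer, spans much of the upstream side in this annotation, and 37 regions lay in its body, of which 3 were shared, 2 gained and 1 lost. Many of these also lie in other genes, so the counts per gene overlap.

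Both upstream gained regions lay in PCAT1. One, 683 kb upstream (chr8:128064768-128065456, intron), was at percentile 63.6 and 56.6 in G12V. The other, 529 kb upstream (chr8:128218377-128219767, non-coding exon of CASC19), was at 3.53 and 74.6, so in replicate 1 it stood just above the lower end of the list. The third gained region was in a PVT1 intron 299.9 kb downstream (chr8:129047206-129047945), at 68.4 and 67.5. The lost region, 334 kb upstream (chr8:128413375-128413936), lay in a non-coding exon of CCAT2, a long non-coding RNA gene described in colon cancer, and was at 63.6 and 3.09 in MCF10A. In MCF10A replicate 2 this peak was thus near the weakest of the list.

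The genes CASC19, PRNCR1, CASC8 and POU5F1B (a retrogene of the OCT4 gene) lie in the same upstream stretch and had no shared region. CASC19 had 6 regions in its body, PRNCR1 had 1, CASC8 had 9 and POU5F1B had 5, and none of their promoters had a peak. A site 344 kb upstream in introns of CASC8 and POU5F1B (chr8:128403062-128404334) had no peak in MCF10A replicate 1, was at 67.3 in MCF10A replicate 2 and at 63.7 and 96.4 in G12V, where it was the third strongest window peak of G12V replicate 2. The CASC19 exon at 513 kb (chr8:128234700-128235635) was at 11.1 in MCF10A replicate 2 and 81.8 in G12V replicate 2, the widest rise of the window between those lists (70.6 points), and had no peak in the replicate 1 lists. A region in a PRNCR1 exon at 654 kb was at 70.8 and 78.1 in MCF10A, absent from G12V replicate 1 and at 89.2 in G12V replicate 2.

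Downstream of PVT1 the window held the long non-coding RNA genes ENSG00000286034, LINC00824 and CCDC26. CCDC26 had 19 regions, 2.23 per 100 kb, of which 1 was shared, and its start lay beyond the window's end. That shared region (chr8:129799591-129800520, intron, 1052 kb downstream) was at 33.6 and 74.3 in MCF10A and 51.8 and 92.7 in G12V, higher in G12V within each replicate number but with overlapping groups. The promoter of ENSG00000286034 at 588 kb was open in 3 lists, at 57.7 and 84.2 in MCF10A and at 67.8 in G12V replicate 2. LINC00824 had 2 regions and ENSG00000253926, at the far end, had 1, none of them in all 4 lists. On the upstream edge, ENSG00000253427 had 1 region and ENSG00000253530 had 2, one of which, at its promoter, was at 85.6 in MCF10A and 75.7 in G12V in the replicate 2 lists only. ENSG00000253573 had 6 regions, ENSG00000287781 had 1 and the pseudogene ENSG00000253543 had a promoter peak in G12V replicate 2 alone, at 27.1.

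Sequence motifs were sought in the 150 bp at the midpoint of the strongest peak of each region, on both strands. AP-1, the FOS and JUN dimer that is a nuclear end point of RAS and ERK signalling, was sought as TGAGTCA or its reverse complement TGACTCA without mismatch. The motif was in 19 of 101 window regions, or 18.8% (Wilson interval 12.4 to 27.5), against 15.8% of all regions and 17.3% of the rest of chromosome 8. The reversed motif, not complemented, was in 4. By library, 4 of 19 and 13 of 61 window regions with a peak in MCF10A held it (21.1% and 21.3%), and 3 of 23 and 14 of 76 in G12V (13% and 18.4%). Over all regions the shares were 13.5% and 16.3% in MCF10A and 12.6% and 16.4% in G12V. The window was thus close to the genome in its AP-1 content, and its share in G12V was not above that in MCF10A.

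Of the AP-1 regions, 10 had a peak in at least 2 libraries, and 4 of these lay in PVT1. The PVT1 regions were those at 96.4, 117, 164 and 299.9 kb, of which the last was gained and the one at 117 kb shared. At 96.4 kb (chr8:128843566-128844535, motif at 128844003) the percentile was 35.9 in MCF10A and 77.5 in G12V, and at 164 kb (chr8:128911194-128912256) it was 37.6 and 55.9, both in the replicate 2 lists only. Upstream AP-1 regions lay at 1247, 697 and 441 kb, all in the replicate 2 lists only, with percentiles of 48.4, 21 and 23.9 in MCF10A and 91.4, 13.6 and 82.4 in G12V. Downstream of PVT1 they lay at 588, 931 and 1501 kb, each with a peak in 3 lists. The region at 931 kb (chr8:129678099-129678753, CCDC26 intron) was at 75.9 in MCF10A replicate 2 and at 65.3 and 86.9 in G12V, and the region at 1501 kb was at 57.4 and 70.1 in MCF10A and 71.1 in G12V replicate 2. AP-1 matches were in 1 of the 11 shared regions, 1 of the 3 gained and 0 of the 1 lost. The strong PVT1 sites at 196, 215 and 442 kb had no match in the 150 bp searched.

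The motif of CTCF, the insulator protein that bounds chromatin loops, was sought with up to 1 mismatch and was in 3 of 101 regions, or 2.97% (1.02 to 8.37), against 6.53% of all regions. The interval spans the genome's share. Only 1 CTCF region had a peak in more than 1 library (chr8:127836577-127836955, 911 kb upstream), at 3.91 in MCF10A and 28.9 in G12V in the replicate 2 lists. PVT1 had 0 of 23. The motif of p53, the tumour suppressor, was sought with up to 3 mismatches outside the invariant bases and was in 2 of 101 regions, or 1.98% (0.545 to 6.93), against 1.26% of all regions. Both p53 regions had a peak in MCF10A replicate 2 only, and over all regions the p53 shares were 1.89% and 1.71% in MCF10A and 0.678% and 0.644% in G12V. One was in a PVT1 intron at 449 kb (chr8:129196895-129197389, motif at 129197136 to 129197155, percentile 2.12, with an AP-1 match beside it), and the other in a CCDC26 intron at 1148 kb (chr8:129895395-129895998, motif at 129895664 to 129895683, percentile 60.3). A match of letters is not evidence of binding, and with these counts a difference in motif content between cell types was not detectable.

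Promoters of the proteins that work with MYC were examined from a list of 13 genes. Of these, 0 were gained and 0 lost, against 0.856% and 0.518% of 20090 protein-coding promoters, 2 were shared (13.6% of all promoters were), 8 had a peak in 1 to 3 lists and 3 had none (23.1%, against 50.3% of all promoters). MAX, the dimer partner of MYC, was shared, at percentile 49.9 and 88.1 in MCF10A and 65.4 and 94.4 in G12V, and so was MXD4, which competes with MYC for MAX, at 23.6 and 76.8 in MCF10A and 35.2 and 70.4 in G12V. The groups overlapped for both. The paralogs MYCN and MYCL had a peak in 1 and 2 lists, and MXD1, MLX and MLXIPL had none. Of 16 textbook targets of MYC, 0 were gained and 0 lost, 1 was shared and 7 had no peak (43.8%). The shared one was NPM1, which encodes a nucleolar chaperone, at 82.3 and 98.4 in MCF10A and 97.7 and 98 in G12V.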

How the data were processed

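ATAC-seq peak lists of 4 libraries were used, 2 of MCF10A and 2 of G12V, grouped by their titles. The study calls the replicates biological, and whether G12V replicates came from separate transductions is not given in the sources used here, so p-values measure the spread between these libraries. Per the study's methods, the authors aligned reads to hg19 with bowtie (0.12.9), kept uniquely placed reads and shifted each read start to where the transposase sat. They called peaks with MACS (1.4.2), with the model switched off, tags of 51 bp, shifts of 75 bp, background over 25000 bp and a p limit of 1e-04. They pooled replicates for their own comparison, while the deposited lists are per library. Each deposited peak has a score, given by MACS as -10 times log10 of the p-value, and the lowest was 40. Scores depend on depth, so they were turned into percentiles within a list. The read depth is unknown, and list length, 12902 to 46698 peaks, stands in for it: a site under the threshold in a short list looks absent.

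Peaks were kept for the 22 autosomes and X, which left out 14 to 25 peaks on Y per list, and merged where they overlapped by at least 1 bp. Genes and starts were those of GENCODE release 44 on GRCh37, where overlapping genes each count a region. Motifs were matched to the GRCh37 sequence. Library values were tested by exact permutation (two-sided), and regions were described by counts beside the same share over all regions, with no test. The members and lists were chosen with earlier results of these data known. The text names MYC, every window gene with a region, all gained, lost and shared regions, p53 regions, AP-1 and CTCF regions of at least 2 libraries and the 3 strongest peaks of each library. Other regions named (at 7.33, 234, 344, 393, 513 and 654 kb, among others) and single genes of the MYC network, MYC target and marker lists were chosen after their values were seen. The result for 1 marker gene is not reported here by name.

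As alternatives, lists were cut to their better-scoring 50% or to the same length (12888 best peaks), peaks were merged at 200 bp or only where 50% of the shorter one overlapped, 1 library was left out, the replicate number was used as a block, and promoters at any transcript start and other motif limits were tried. A block with crossed numbers, and the list and merging settings for the share of regions higher in G12V, were chosen after seeing the data. The correlation of deviations of same-numbered libraries was -0.113 for peak presence and 0.143 for percentiles, over 60886 regions, so the numbers were not taken to pair the libraries. Same-numbered lists were nonetheless alike in length. A peak in both replicate 2 lists only was present in 9902 regions, against 896 with a peak in 2 lists of crossed numbers. Percentiles were set side by side within replicate numbers because those lists are closest in length, and crosswise as an alternative. Merging and the motif search were tested on simulated data. Python 3.11.15 was used with numpy 2.4.6, scipy 1.17.1, pandas 2.3.3, pysam 0.24.0 and matplotlib 3.10.9.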

Additional observations from a re-analysis of the deposited data

How the results depend on the processing

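The limits of these lists are few libraries and unequal length: 2 libraries per cell type cannot give a p below 0.333, and the replicate 2 lists hold most regions. Leaving out 1 library in turn gave 3 to 33 gained, 1 to 19 lost and 11 to 16 shared regions (3, 1 and 11 with all libraries) and 14 to 23 PVT1 regions. The difference in window peaks ran from -16.5 (without G12V replicate 2) to 37.5 and was -10 without MCF10A replicate 1, the difference per 1000 peaks from -0.0798 (without MCF10A replicate 1) to 0.138, the MYC promoter difference from -46.9 to 21.6 (21.5 without G12V replicate 1), and the window median difference from 7.24 to 22.9. AP-1 shares ran from 18.2% to 23.9%, CTCF from 2.06% to 4.23%, p53 from 0% to 3.03%, shared MYC network promoters from 2 to 4 (gained 0 to 2, lost 0 to 2) and shared MYC targets from 1 to 4 (gained 0 to 2, lost 0 to 3). Without 1 library, a single list stands for its cell type, so by construction the counts of gained and lost regions cannot be lower.

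Lists cut to their better-scoring 50% gave 4 shared and 15 PVT1 regions, 0% CTCF regions, 0 shared network promoters and a window median difference of -4.37. With equal list sizes there were 1 gained, 3 lost and 14 PVT1 regions and 0% p53 regions, and the MYC promoter difference was -30.9. Network promoters were then 1 shared, 1 gained (MXI1) and 1 lost, which was that of MYC itself. The shares over all promoters at that setting are not given here. A peak in either replicate gave 37 gained, 21 lost and 43 shared. Promoters at any transcript start gave 4 shared network and 3 shared target genes. AP-1 shares were 53.5% with 1 mismatch, 44.6% over whole regions and 3.96% for the reversed motif. CTCF shares were 12.9% with 2 mismatches, 15.8% over whole regions and 0% reversed, and p53 was 0% with 2 mismatches and 0.99% reversed. Over all regions the reversed motifs were in 3.1% (AP-1), 1.13% (CTCF) and 0.2% (p53). For the other motif limits the shares over all regions are not given here, so the window was not compared with the genome under them.

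With the replicate number as a block, the replicate 1 pair gave 13 gained, 9 lost and 8 PVT1 regions, and the replicate 2 pair 34 gained, 19 lost and 42 shared, with 8 shared network and 8 shared target promoters. The blocked differences had the values without the block (10.5 window peaks, 15.1 for the window median). Sign flips of the pairs gave an exact p of 0.5, the lowest p that this block allows. Crossed pairing of MCF10A replicate 1 with G12V replicate 2 gave 62 gained and 3 lost. MCF10A replicate 2 with G12V replicate 1 gave 7 gained and 45 lost. In that pair G12V stood higher in 28.6% of PVT1 and 12.5% of window regions, against 100.0% and 78.6% in the replicate 2 lists. Each crossed pair sets a short list against a long one. Gained and lost shares over all regions are not given here by pair, so these counts were not compared with the genome.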

Other observations

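Within 1 Mb of the MYC start there were 72 regions, of which 3 were gained, 1 lost and 8 shared, so 3 of the 11 shared regions and none of the gained or lost ones lay farther out. From 100 to 500 kb there were 13 regions upstream (0 shared) and 19 downstream (6 shared). Window peaks had a median width of 454 and 522 bp in MCF10A and 418 and 690.5 bp in G12V, against 412, 524, 420.0 and 551 bp over the whole lists in the same order. Chromosome 8 as a whole took 60 and 57.2 of every 1000 peaks in MCF10A and 60.8 and 58.3 in G12V. Among promoters of MYC targets, EIF4E, which encodes the cap-binding translation factor, was at percentile 75.8 and 89.7 in MCF10A and 98.3 in G12V replicate 2, with no peak in G12V replicate 1.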
